A study of Mus musculus with 3 samples.

Results

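Epithelial cells marked by Vmo1, Lypd2, Otx2, Meis2 and Lrp2 were examined in explanted cochleae of adult mice after co-induction of the transcription factor MYC and of NICD, the active intracellular domain of the receptor Notch1. A cell was a member when it held at least 1 UMI (unique molecular identifier, 1 captured transcript) of the epithelial gene Epcam, had at least 200 genes and 1 to 20% mitochondrial UMIs, scored highest for these 5 genes among 4 marker sets of 5 genes each, and held UMIs of at least 2 of the 5. The rule found 280 members among 849 Epcam cells, 1595 cells kept by the filters and 2395 deposited barcodes. The control held 16 members, Dox replicate 1 held 44 and Dox replicate 2 held 220. The cells are called Vmo1-Otx2 cells or members below, and values are given in the order control, Dox replicate 1, Dox replicate 2.

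Reissner's membrane is the thin partition between scala media and scala vestibuli of the cochlea. Its epithelial layer faces endolymph, is joined by tight junctions and absorbs sodium through the epithelial sodium channel ENaC and the sodium pump, and it keeps the identity of the roof of the developing cochlear duct, which is patterned by OTX2 and related factors. This layer is not counted among the sensory or supporting cells.

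All libraries came from whole cochlear explants of mice aged 4 to 6 weeks that carried rtTA, tet-on-Myc and tet-on-NICD. The control explants received sterile water, and the treated explants received doxycycline (Dox) at 2 µg/ml, which switches on both transgenes together, for 4 days before the sensory epithelium was dissected and dissociated with trypsin. Each library pooled 4 cultures, and there was 1 control and 2 Dox libraries, so that p-values measure only the spread between the pooled Dox libraries. The sources used here do not name the promoter that drives rtTA. Explants lacking the transgenes were not given Dox in these libraries, so the drug's own effects cannot be told apart from theirs. Reissner's membrane was removed at each end of the cochlea before culture, per the labels' protocols, which bears on every share of cells given below.

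The libraries held 5436731, 20309102 and 33385927 UMIs. Members held 908144, 2829427 and 12292987 of them, with medians of 58852.5, 59757 and 45364.5 UMIs and 7203, 7470 and 6677 genes per cell, and median mitochondrial shares of 3.91%, 4.66% and 4.62%. The 3 deepest control members held 33.5% of the control members' UMIs. Libraries shared cell barcodes (101, 92 and 68 between pairs), and 193 of the cells with a shared barcode held at most 1.68% of the UMIs of the same barcode in another library. Of the 280 members, 12 were such shallow copies (1, 5 and 6), with 0.0801%, 0.151% and 0.0418% of the members' UMIs. No caller was run on doublets and none was removed.

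Members held the rule's genes at levels far above the other Epcam cells, which describes the selection and is not a test. Vmo1, which encodes a secreted protein named after the vitelline membrane of the egg, is on chromosome 11 (ENSMUSG00000020830, GRCm38, 70513516 to 70514616, minus strand) and stood at 5774, 1163 and 1078 CPM (UMIs of a gene per 1000000 of the members' summed UMIs), against 20.1, 67.1 and 34.3 in all other Epcam cells. Otx2, a homeobox factor of head and roof patterning (chromosome 14, 48657677 to 48673819, minus strand), stood at 167, 71.7 and 68.4 CPM in members and at 3.55, 0.104 and 1.43 elsewhere. Lrp2, which encodes the endocytic receptor megalin (chromosome 2, 69424340 to 69586065, minus strand), stood at 703, 188 and 171 CPM in members and at 1.18, 6.77 and 6.34 elsewhere. These 3 genes were highest in the control members.

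Meis2, a homeobox cofactor (chromosome 2, 115863064 to 116065839, minus strand), stood at 193, 101 and 114 CPM in members. Lypd2, which encodes a small membrane-anchored protein of the Ly6 family (chromosome 15, 74732247 to 74734329, minus strand), had the opposite order, at 44.0, 127 and 174 CPM. UMIs of Vmo1 were found in 81.3%, 97.7% and 90.0% of members and in 11.8%, 18.5% and 18.6% of the other Epcam cells of at least 20000 UMIs, whose median depths were 35736, 61796 and 42156 UMIs, in the control below that of the members. Over single members the median of Vmo1 was 29.0, 6.32 and 4.97 UMIs per 10000, and it ran from 0 up to 183.8, 208 and 244.3 in the 3 libraries. The 208 of Dox replicate 1 came from a shallow barcode copy of 721 UMIs. All 5 genes were detected in 7, 27 and 137 members and only 2 of them in 4, 4 and 22. Just outside the rule lay 10, 6 and 15 cells that scored highest for the set with UMIs of 1 of its genes, with medians of 774, 1807.5 and 1031 UMIs.

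The stretch of 250 bases before the start site of Vmo1 is shown because OTX2, the product of another gene of the rule, binds the core TAATCC. It covers chr11:70514617-70514866 on the minus strand (RefSeq, GRCm38.p6), is written from 5′ to 3′ and has its 1 match, 116 bases before the start site, in capitals.
Vmo1: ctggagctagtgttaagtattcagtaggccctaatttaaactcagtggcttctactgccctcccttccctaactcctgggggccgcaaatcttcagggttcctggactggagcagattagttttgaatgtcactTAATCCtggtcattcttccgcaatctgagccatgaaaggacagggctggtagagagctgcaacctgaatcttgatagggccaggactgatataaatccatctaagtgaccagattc
TAATCC on either strand was present in 6.38% of the 27025 promoter windows of that length. Among genes at least 2-fold higher in members than in other Epcam cells of every library, 3 of 113 with a window held it. The rule's own genes were not left out of that set, and Vmo1 is 1 of the 3. A match is a description of the letters and no evidence of binding.

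The name Reissner-like was checked on 12 markers of Reissner's membrane outside the rule. Slc26a7, an anion exchanger of that membrane, stood at 110, 9.54 and 6.43 CPM in members and at 0, 0.104 and 0.302 in other Epcam cells. Lmx1a, a roof factor, stood at 155, 43.5 and 32.2 CPM against 11.8, 0.729 and 4.15, and the signal Wnt4 at 216, 75.6 and 81.2 against 46.1, 12.4 and 10.9. Enpep, which encodes a membrane aminopeptidase, stood at 41.8, 22.3 and 18.6 CPM against 5.91, 2.40 and 1.81. These 4 markers were higher in members in all 3 libraries.

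The remaining markers did not all follow the name. Of the 12 markers, 2 were lower in members in all 3 libraries, against the 4 that were higher. Among the lower ones, Gata2 stood at 28.6, 13.8 and 11.9 CPM in members and at 54.4, 24.5 and 27.3 CPM in the other Epcam cells. Car12 is given only with the treatment contrast below, in members. Kl, Pax8 and Kcnk2 had no UMI in members, and Oc90, Bmp2 and Sall1 were at most 4.41 CPM in any library. The 24 roof and otic patterning factors summed to 1437, 789 and 727 CPM in members and to 1243, 767 and 653 CPM in other Epcam cells, with 10 factors higher and 7 lower in members in all 3 libraries. Picked from the higher ones after their values were seen, Tbx3 (107, 47.0 and 54.9 CPM against 4.73, 0.625 and 4.15) and Otx1 (54.0, 31.8 and 26.8 CPM against 3.55, 5.21 and 3.25) are given here.

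**Figure D1:**
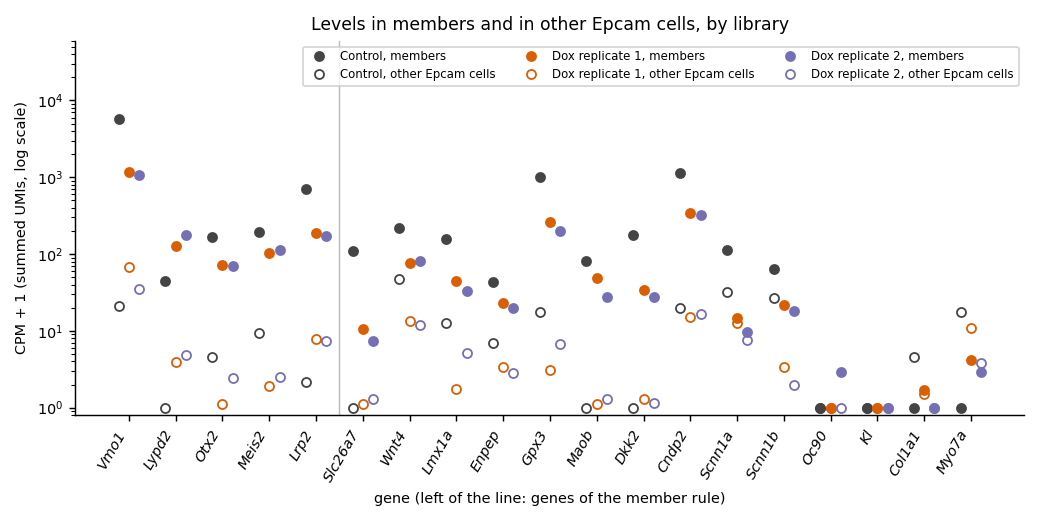
CPM + 1 of summed UMIs (log scale) in members (filled) and in the other Epcam cells (open) by library, for the rule's 5 genes left of the line and 14 others right of it. Slc26a7, Lmx1a, Wnt4, Gpx3 and Dkk2 are higher in members in every library, while Oc90 and Kl are at or near the bottom in both.

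With the rule's own genes counted in, 8623 genes had a UMI in at least 25% of members of every library. Of these, 141 were at least 2-fold higher in members than in the other Epcam cells in all 3 libraries, 60 at least 4-fold higher and 84 at least 2-fold lower, each with a pseudocount of 1 CPM. These counts thus include genes that chose the cells. Genes of the 4 marker sets and those with clone names were left out of the ranking that follows. Gpx3, a secreted glutathione peroxidase, led it with 1012, 264 and 202 CPM against 16.6, 2.08 and 5.66. Dkk2, a secreted modulator of WNT signalling, stood at 175, 32.9 and 26.8 CPM against 0, 0.313 and 0.151, and the dipeptidase gene Cndp2 at 1123, 345 and 326 CPM against 18.9, 14.3 and 15.7. Each of these leading genes was highest in the control members.

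Other leading genes encode the GDNF receptor Gfra1 (54.0, 39.2 and 22.5 CPM), the monoamine oxidase Maob (80.4, 48.4 and 26.3 CPM) and the secretory kinase family member Fam20a (85.9, 64.3 and 70.8 CPM). Fut9, a fucosyltransferase gene, had another order, at 96.9, 157 and 171 CPM. Others of the 15 leading genes were Tmem72, Fap, Thsd7a, Tm4sf5, Serpina3n, Slc6a15 and Cndp1. Because the cells were selected by expression, these ratios have no test.

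Markers of some other cochlear cells were low in members and those of others were not. The 14 supporting cell markers summed to 59.5, 77.4 and 58.8 CPM in members against 2946, 836 and 399 CPM in other Epcam cells. The 10 hair cell markers summed to 6.61, 9.54 and 10.4 CPM, with Pou4f3, Otof, Slc26a5 and Gfi1 at 0. Fibroblast markers summed to 3.30, 10.96 and 2.44 CPM and melanocyte markers to 9.91, 4.24 and 5.37 CPM. Sox2, of the competing sensory epithelial set, stood at 0, 2.83 and 0.325 CPM.

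Stria marginal cell markers summed to 246, 79.9 and 80.05 CPM in members, close to the 214, 80.3 and 75.2 CPM of other Epcam cells. Root and spindle cell markers summed to 776, 46.3 and 263 CPM against 548, 97.4 and 88.8 CPM, mostly P2rx2 (542, 29.0 and 35.4 CPM) and Anxa1 (204, 12.4 and 223 CPM). Glial markers summed to 338, 184 and 144 CPM against 233, 203 and 195 CPM, of which Sox10, also an otic epithelial gene, gave 197, 72.8 and 50.3 CPM, while Foxd3 was at 0. In the control, these 3 sums were higher in members than in other Epcam cells.

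Secretory and basal middle ear markers summed to 95.8, 15.2 and 15.1 CPM against 5.91, 78.9 and 92.2 CPM, and were higher in members only in the control. Pericyte and endothelial markers summed to 73.8, 14.5 and 15.4 CPM against 231, 13.3 and 10.3 CPM. Ciliated cell markers summed to 17.6, 7.07 and 7.81 CPM against 34.3, 67.0 and 40.4 CPM. Macrophage markers, in members nearly all Cd68, summed to 90.3, 6.36 and 7.24 CPM against 7.10, 17.0 and 30.7 CPM. Vestibular roof markers summed to 175, 18.4 and 14.2 CPM against 208, 119.5 and 82.1 CPM, with Otol1 in 1 of the control members. Choroid plexus markers, Otx2 and Lmx1a left out, summed to 141, 16.3 and 8.30 CPM against 42.6, 24.6 and 26.8 CPM. In the control members, 84.8% of the Ttr UMIs lay in 1 cell. The macrophage and choroid plexus sums were also higher in members only in the control. These sums move with the treatment contrast below, and their part in its results was not tested.

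**Figure D2:**
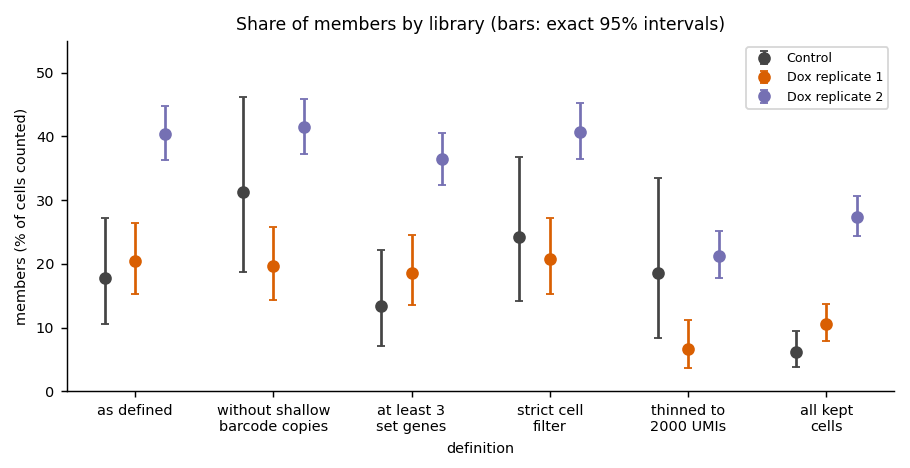
Share of members among the Epcam cells of each library (last column, among all kept cells) under 6 definitions, as points with exact 95% binomial intervals. As defined, Dox replicate 2 lies at 40.4% and the other libraries at 17.8% and 20.5%; without shallow barcode copies the control moves to 31.3%.

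Members made up 17.8% of Epcam cells in the control (16 of 90, exact Clopper-Pearson 95% interval 10.5 to 27.3%), 20.5% in Dox replicate 1 (44 of 215, 15.3 to 26.5%) and 40.4% in Dox replicate 2 (220 of 544, 36.3 to 44.7%). The intervals cover counting error only. The Dox libraries differed from each other more than Dox replicate 1 differed from the control, so the shares showed no difference by treatment beyond that spread. Without shallow copies of shared barcodes the shares were 31.3% (15 of 48), 19.6% (39 of 199) and 41.5% (214 of 516), and the control then lay between the Dox libraries.

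UMIs were then summed over the members of each library and compared between Dox and control with edgeR's quasi-likelihood F test on TMM-scaled counts, with Benjamini-Hochberg adjustment over all genes tested. The threshold for a call was an adjusted p of 0.05. Both Dox libraries lay above the control for 46.5% of genes and below it for 43.9%. A sum cannot tell fewer cells with a transcript from less RNA of it per cell. Of 11338 genes, 3175 were called (28.0%), with 1671 that rose (14.7%) and 1504 that fell (13.3%). Among these, 1199 rose and 1039 fell by at least 2-fold, and 80 of the risen genes had no control UMI. Scaling by total counts gave 1389 that rose and 1945 that fell, and the median log2 fold change over all genes moved from 0.03 to -0.11.

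The limits of this comparison lie in the 16 control cells. With every cell thinned to 5000 UMIs, which left 14 control cells, 1 gene rose and 12 fell among 4485 tested. Npm1 was the risen gene, and Crhbp, Ifi27l2a, B2m, Bst2 and Lgals1 were among those that fell. The lists below had medians of the same sign in that fit, except the keratin list (-0.07 and 0.27) and the glutathione list (0.02 and -0.05). Counts over lists are read against the 14.7% that rose and 13.3% that fell among all genes.

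Notch1 and Myc rose, as did 5 other genes of the Notch list. Notch1 (chromosome 2, 26457903 to 26516663, minus strand), the receptor whose intracellular domain the transgene encodes, had UMIs in 13 of 16, 39 of 44 and 206 of 220 members and stood at 45.5, 511 and 325 TMM-scaled CPM (log2 fold change 3.19, SE 0.38, adjusted p = 0.00536). Myc (chromosome 15, 61985391 to 61990374, plus strand), the other transgene's factor, was found in 4, 32 and 150 members at 9.31, 66.9 and 45.4 CPM (log2 fold change 2.54, SE 0.49, adjusted p = 0.0183). Both Dox libraries lay above the control for each gene, and Dox replicate 1 was the higher of the pair. UMIs of a transgene and of its endogenous gene cannot be separated in these counts.

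Nrarp, an ankyrin-repeat protein that feeds back on Notch signalling (chromosome 2, 25180758 to 25183339, plus strand), had no UMI in the control members and reached 187 and 167 CPM in the Dox libraries. Against the control floor of 3 UMIs, or 3.103 CPM, this is at least 57.2-fold higher (adjusted p = 0.00111). The repressor gene Heyl likewise had levels of 0, 92.9 and 56.7 CPM and was higher by at least 24.1-fold (adjusted p = 0.00898). Hey1, a repressor of the same family, stood at 5.17, 94.4 and 97.0 CPM (log2 fold change 4.21, SE 0.27, adjusted p = 0.00174). The receptor gene Notch3 stood at 13.4, 63.3 and 53.6 CPM (log2 fold change 2.10, SE 0.28, adjusted p = 0.00744). All 4 genes were several-fold higher in each Dox library than in the control.

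Of 16 tested Notch-responsive genes, Notch1 and Myc included, 7 rose and 1 fell (median log2 fold change 1.18). The ligand gene Jag1 was the seventh riser, at 10.3, 30.4 and 34.0 CPM, and Sox9, an otic epithelial factor, was the one that fell, at 423, 279 and 294 CPM. Hes1 stood at 118, 145 and 234 CPM (adjusted p = 0.172) and Hes5 at 0, 24.2 and 9.83 CPM (adjusted p = 0.0743), and neither passed. Across single unthinned members of at least 5000 UMIs, Notch1 and Nrarp had a Spearman rho of 0.52 over 204 cells of Dox replicate 2. Over 39 cells of Dox replicate 1 the rho was 0.19. Depth was not equalised, and Nrarp had a rho of 0.16 and 0.26 with depth in the same order. These values are a description within a library.

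The window before the start site of Nrarp is shown as that of the Notch-responsive gene with the largest rise. It covers chr2:25180508-25180757 on the plus strand (RefSeq, GRCm38.p6), and the capitals mark 1 match of the E-box CACGTG, 108 bases before the start site.
Nrarp: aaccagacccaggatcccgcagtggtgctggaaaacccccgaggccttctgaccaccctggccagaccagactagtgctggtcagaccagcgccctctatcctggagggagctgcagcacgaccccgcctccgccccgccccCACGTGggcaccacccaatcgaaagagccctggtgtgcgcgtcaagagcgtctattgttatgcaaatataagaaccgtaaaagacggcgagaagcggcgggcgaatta
The core GTGGGAA of RBPJ, the factor through which NICD acts on DNA, was present on either strand in 5.41% of all windows and in 3 of the 11 windows found for the list. These letters are not in the window of Nrarp.

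Genes of MYC-driven growth rose nearly throughout their list. Of 38 genes, 33 rose and 1 fell, and the list's median on the log2 scale was 1.92. Npm1, a nucleolar protein of ribosome assembly, stood at 688, 4352 and 4862 CPM (log2 fold change 2.74, SE 0.12, adjusted p = 0.00105), and Ncl, which encodes nucleolin, at 527, 2314 and 2329 CPM (log2 fold change 2.14, SE 0.10, adjusted p = 0.00108). The mitochondrial chaperone gene Hspd1 stood at 242, 1691 and 1532 CPM and the nucleolar gene Nop56 at 59.996, 293 and 293 CPM. The Dox libraries lay close together for each of these genes and far above the control. Of 79 cytosolic ribosomal protein genes tested, 78 rose and none fell (median log2 fold change 1.21), for example Rpl27a at 2041, 5785 and 6013 CPM. Of the 13 mitochondrially encoded genes, 9 rose and 1 fell (median 0.63), and the part of RNA quality in these sums was not tested.

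Cdk4, the kinase that drives the G1 phase, stood at 92.1, 295 and 300 CPM (log2 fold change 1.69, SE 0.14, adjusted p = 0.00242). Its window, chr10:127063285-127063534 on the plus strand (RefSeq, GRCm38.p6), is shown because it holds 4 matches of CACGTG, the E-box that MYC binds with its partner MAX, from 172 to 11 bases before the start site. The capitals mark the matches.
Cdk4: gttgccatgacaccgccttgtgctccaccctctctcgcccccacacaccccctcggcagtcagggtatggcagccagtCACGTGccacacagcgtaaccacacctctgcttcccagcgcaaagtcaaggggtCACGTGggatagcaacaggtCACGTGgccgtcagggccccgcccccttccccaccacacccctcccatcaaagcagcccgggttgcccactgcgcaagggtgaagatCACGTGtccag
CACGTG, which reads the same on both strands, was present in 6.05% of all windows and in 8.71% of those of tested genes. Among risen genes 10.8% of windows held it (146 of 1349), among fallen genes 8.33%, among genes not called 8.33%, and in the list of growth genes 7 of 32.

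Cell cycle genes of the S and G2/M phases were far higher in the Dox members. Of 26 G2/M genes, 24 rose and none fell. The list's median was 4.61 on the log2 scale, or 3.92 when the 6 genes of no control UMI were set to 3 UMIs. Ube2c, which encodes a ubiquitin-conjugating enzyme of mitotic exit, had no control UMI and stood at 0, 120 and 197 CPM, at least 51.0-fold higher. Cenpf, a kinetochore protein, had 2 control UMIs and stood at 2.07, 198 and 285 CPM (pooled ratio 130, counting interval 35.9 to 1072).

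The proliferation marker Mki67 stood at 9.31, 198 and 299 CPM (log2 fold change 4.75, SE 0.46, adjusted p = 0.00322). The centromere protein genes Cenpa (1.03, 123 and 150 CPM) and Cenpe (3.103, 86.4 and 110 CPM), the spindle gene Hmmr (3.103, 108 and 137 CPM) and the histone gene Hist1h2ae (5.17, 80.7 and 208 CPM) were also among the 12 largest rises. All control UMIs of Mki67, Cenpf and Cenpa lay in 1 of the 16 control members. At least 3 G2/M genes had UMIs in 1 of 16, 33 of 44 and 177 of 220 members. With cells thinned to 5000 UMIs these shares were 0% of 14 (a count of 0 allows up to 21.4%), 53.8% of 39 and 60.3% of 204.

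Of 28 S phase genes, 21 rose and none fell (median log2 fold change 1.64), against 13 that rose with DESeq2's Wald test. Without the cell of most G2/M UMIs in each library all 28 rose (median 3.06), and without cells over 100000 UMIs 25 rose (median 3.05). Of 17 G1 cyclins and inhibitors, 4 rose and 2 fell, against 7 and 1 in each of these fits, with Cdk6 at 29.998, 99.5 and 114 CPM. Dtl, a factor of replication licensing control, stood at 8.28, 108 and 105 CPM, with its control UMIs in 1 cell, and the helicase subunit gene Mcm7 stood at 17.6, 89.7 and 103 CPM. Hells (39.3, 169 and 157 CPM) and Mcm6 (37.2, 125 and 118 CPM) had 78.9% and 69.4% of their control UMIs in 1 cell. At 5000 UMIs per cell, at least 3 S phase genes were found in 14.3%, 71.8% and 71.1% of members.

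**Figure D3:**
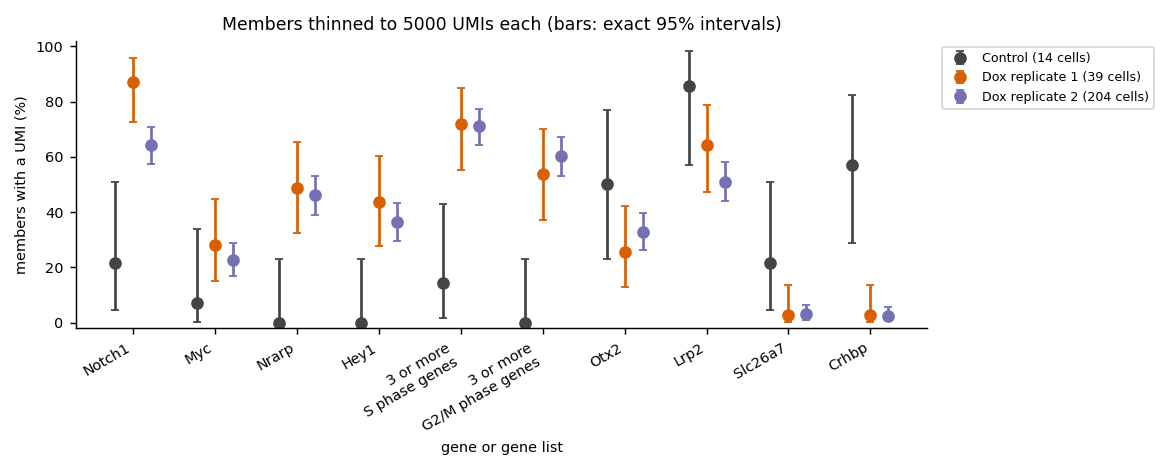
Percent of members with a UMI of a gene, or of at least 3 genes of a phase list, after thinning every cell to 5000 UMIs, as points with exact 95% binomial intervals by library. Nrarp, Hey1 and the G2/M genes are at 0% of 14 control members and at 36.3 to 60.3% of Dox members. Slc26a7 and Crhbp run the other way, with intervals of Slc26a7 that overlap between the control and both Dox libraries.

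Depth bears on these shares, so thinned and unthinned values are given. Notch1 had a UMI in 21.4%, 87.2% and 64.2% of thinned members (81.3%, 88.6% and 93.6% unthinned), and Nrarp in 0%, 48.7% and 46.1% (0%, 86.4% and 77.7% unthinned). Otx2 was found in 50.0%, 25.6% and 32.8% of thinned members and Lrp2 in 85.7%, 64.1% and 51.0%. Slc26a7 was found in 21.4%, 2.56% and 2.94% (56.3%, 22.7% and 20.9% unthinned). With 14 control cells, the intervals of Otx2, Lrp2 and Slc26a7 overlapped between the control and both Dox libraries.

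The rule's own genes are given without a test, since they chose the cells. In TMM-scaled CPM, Vmo1 stood at 5425, 1190 and 1132, and the levels of Otx2, Meis2 and Lrp2 given above were likewise highest in the control, while Lypd2 was lowest there. Among the 6 testable Reissner markers outside the rule, 5 fell and 1 rose, against 3 and none with DESeq2. Slc26a7 stood at 103, 9.77 and 6.75 CPM (log2 fold change -3.75, SE 0.26), Wnt4 at 203, 77.4 and 85.3 CPM (-1.31, SE 0.14) and Lmx1a at 146, 44.5 and 33.8 CPM (-1.94, SE 0.21). Gata2 and Enpep fell by 1.04 and 0.92 on the log2 scale, and Car12, a carbonic anhydrase, rose from 12.4 to 33.6 and 36.5 CPM. The UMIs of Slc26a7 were spread over 9 of the 16 control members, with 22.0% in the top cell.

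Of 13 tested genes of sodium absorption, 9 fell and none rose (median log2 fold change -1.42). Scnn1a, the alpha subunit of ENaC, stood at 107, 14.1 and 9.23 CPM (log2 fold change -3.30, SE 0.28) and the beta subunit Scnn1b at 59.0, 20.98 and 18.1 CPM (-1.62, SE 0.22). The gamma subunit Scnn1g was low and not called, at 9.31, 6.87 and 9.14 CPM. Both Dox libraries lay below the control for the alpha and beta subunits.

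The pump subunit gene Atp1b1 stood at 447, 157 and 130 CPM, with 51.0% of its control UMIs in 1 cell. Fxyd3, a pump modulator, stood at 276, 20.98 and 24.4 CPM (-3.58, SE 0.15). Sgk1, the kinase that keeps ENaC at the membrane, fell by 1.24 on the log2 scale, Nedd4l, the ligase that removes ENaC, by 0.94, and Nr3c2, the mineralocorticoid receptor, by 2.91. Genes with opposed roles in the list fell together. With DESeq2, 6 of the 13 fell, and with cells thinned to 5000 UMIs none of 11 tested was called (5 fell by unadjusted p).

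Of 14 endocytic partners of megalin tested, 7 fell and 1 rose (median log2 fold change -0.63). Lrpap1, the chaperone of megalin, stood at 172, 57.9 and 53.6 CPM, and the clathrin genes Cltb (177, 79.2 and 86.8 CPM) and Cltc (307, 170 and 166 CPM) also fell. The adaptor Dab2 stood at 82.8, 43.4 and 55.03 CPM and did not pass (adjusted p = 0.058). With DESeq2, 3 fell. The riser was Amn, with no control UMI and at most 8.32 CPM in a Dox library. Of 10 anion and bicarbonate transport genes, 2 rose (Car12 and Ano1) and 2 fell, among them Slc26a4, and none passed with DESeq2.

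Of 20 genes of epithelial junctions, 9 fell and none rose (median log2 fold change -0.74). Cdh1, which encodes E-cadherin, stood at 416, 140 and 157 CPM, and the claudin genes Cldn4 and Cldn6 at 724, 243 and 266 CPM and at 295, 47.7 and 73.1 CPM. Cldn7, at 507, 484 and 474 CPM, and Cldn3, at 352, 273 and 320 CPM, were not called. Epcam, which every member had to hold, fell by 0.73 on the log2 scale, so the selection and this value are not independent. Of 7 keratins, 1 rose (Krt17, with 1 control UMI), and the main epithelial keratins Krt8 (1311, 1092 and 1403 CPM) and Krt18 (1310, 954 and 1622 CPM) were not called.

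Of 16 roof and otic patterning factors, 7 fell and none rose (median log2 fold change -0.91), against 2 that fell with DESeq2. Besides Lmx1a, Gata2 and Sox9 these were Tbx1 (86.9, 35.1 and 42.2 CPM), Emx2 (110, 61.8 and 55.7 CPM), Tbx3 (100, 48.1 and 57.7 CPM) and Sox10 (185, 74.5 and 52.8 CPM). Eya1, of the early otic programme, was not called. Among 12 BMP and WNT signalling genes, 3 fell: Wnt4, the inhibitor of differentiation Id4 (242, 27.1 and 31.4 CPM) and the inhibitory SMAD gene Smad7 (103, 16.6 and 26.2 CPM). Id1, Id2 and Id3 were not called and differed between the Dox libraries, for instance Id3 at 200, 74.1 and 187 CPM.

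**Figure D4:**
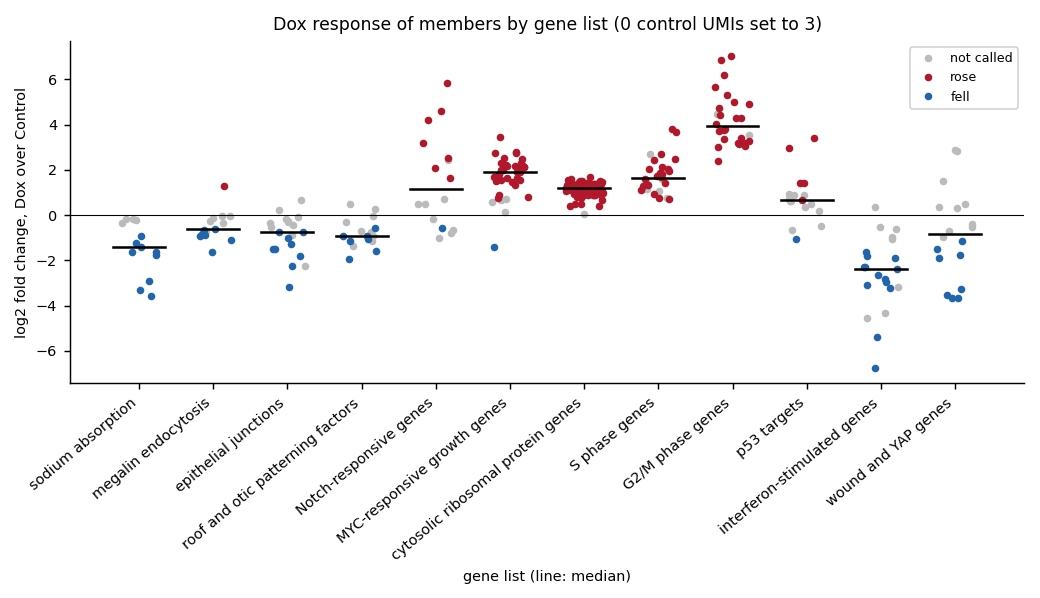
Log2 fold change of Dox over control for each tested gene of 12 lists in members, coloured by call, with the list's median as a line; genes with no control UMI are drawn against 3 UMIs. Medians run from -2.40 in the interferon-stimulated list to 3.92 in the G2/M list.

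Of 21 interferon-stimulated genes tested, 13 fell and none rose (median log2 fold change -2.40). B2m, the light chain of class I MHC, stood at 1253, 173 and 153 CPM (log2 fold change -2.95, SE 0.12, adjusted p = 0.00105), and the heavy chain gene H2-D1 at 1429, 229 and 177 CPM (-2.82, SE 0.17). The antiviral membrane proteins Bst2 (1439, 301 and 281 CPM) and Ifitm3 (2471, 762 and 810 CPM) fell by 2.31 and 1.65 on the log2 scale. Irf7, the regulator of the response, stood at 140, 6.51 and 2.22 CPM, Ifit3 at 51.7, 1.81 and 0.0855 CPM and Isg15 at 122, 22.8 and 10.3 CPM. UMIs of B2m were found in 15 of the 16 control members and those of Bst2 and Isg15 in 14, with 43.2% of those of Isg15 in 1 cell.

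The window before Isg15, a ubiquitin-like protein, is shown for the element that interferon-activated factors bind. It covers chr4:156200819-156201068 on the minus strand (RefSeq, GRCm38.p6). Capitals mark 3 overlapping matches of a pair of TTTC with any 2 bases between them, here on the other strand, from 78 to 66 bases before the start site.
Isg15: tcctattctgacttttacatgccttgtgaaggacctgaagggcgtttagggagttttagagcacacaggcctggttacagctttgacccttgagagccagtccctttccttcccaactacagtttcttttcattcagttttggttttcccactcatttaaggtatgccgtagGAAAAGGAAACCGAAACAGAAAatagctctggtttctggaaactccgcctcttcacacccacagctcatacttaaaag
The pattern was present on either strand in 3.04% of all windows, in 2.15% of those of risen genes, in 3.40% of those of fallen genes and in 7 of 18 of the interferon list.

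At an unadjusted p of 0.05 or less, edgeR put 1 junction gene, 1 BMP and WNT gene and no gene of the sodium, otic factor and interferon lists among the risers, and no G2/M, S phase or ribosomal protein gene among those that fell. DESeq2 called none of these at its adjusted threshold.

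Of 18 wound and YAP-responsive genes, 8 fell and none rose (2 rose by unadjusted p, none with DESeq2). Their median log2 fold change was -0.85, and -0.58 without Dox replicate 1 or -1.48 without Dox replicate 2. Lgals1, which encodes galectin-1, stood at 1256, 80.3 and 118 CPM (log2 fold change -3.64, SE 0.22) and the annexin gene Anxa2 at 531, 155 and 162 CPM (-1.74, SE 0.12). Lgals3 stood at 272, 11.6 and 27.0 CPM, with 62.4% of its control UMIs in 1 cell. Of 10 acute phase and antimicrobial genes, 3 fell and 1 rose. The iron-binding protein gene Lcn2 stood at 17024, 5103 and 7895 CPM (adjusted p = 0.0137). A single control member held 51.7% of its control UMIs, and with cells over 100000 UMIs left out the log2 fold change of -1.39 became -0.40 and did not pass.

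Stress lists moved in part and in both directions. Of 17 p53 targets, 5 rose and 1 fell, against 10 that rose when members had to hold 3 genes of the rule and 2 with DESeq2. The pro-apoptotic gene Bax stood at 122, 297 and 356 CPM (log2 fold change 1.42, SE 0.18), whereas Cdkn1a, the cell cycle inhibitor, stood at 244, 302 and 392 CPM and did not pass (adjusted p = 0.109). Of 25 immediate early and dissociation genes, 6 rose and 1 fell, with Atf3 at 294, 611 and 644 CPM and the heat shock gene Hspb1 at 1500, 499 and 546 CPM.

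Among 17 genes of the integrated stress response, 5 rose and 2 fell, led by Phgdh, which opens serine synthesis, at 25.9, 125 and 144 CPM. Of 20 sterol and lipid synthesis genes, 6 rose and 1 fell, with Cyp51 at 36.2, 112 and 112 CPM, against 3 that rose with DESeq2. Of 16 hypoxia genes, 4 rose and 6 fell. The glycolytic genes Pgk1 (614, 1090 and 1145 CPM) and Ldha (694, 1194 and 1187 CPM) rose, while the glucose transporter gene Slc2a1 (136, 45.2 and 51.4 CPM) fell. Of 17 glutathione and NRF2 genes, 2 rose and 3 fell, and Gpx4, which reduces lipid peroxides, was at 4879, 1215 and 1278 CPM (log2 fold change -1.97, SE 0.09). The median of that list was 0.02, and -0.05 with cells thinned to 5000 UMIs.

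**Figure D5:**
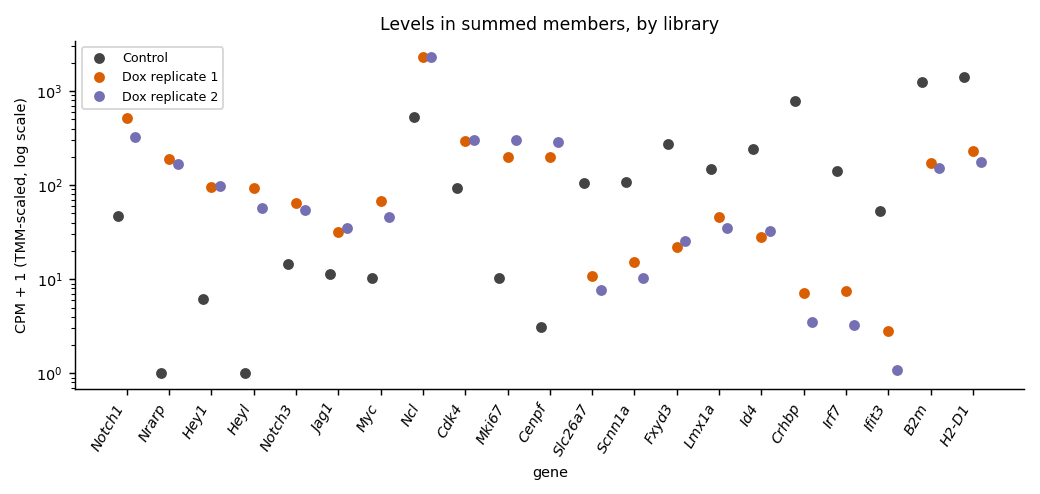
TMM-scaled CPM + 1 (log scale) of 21 genes in the summed members of each library. The 2 Dox points lie above the control for the Notch, growth and cell cycle genes on the left and below it for the transport, patterning and interferon genes on the right.

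Some of the largest single-gene changes lay outside these lists. Espn, an actin-bundling protein of stereocilia and microvilli, stood at 3.103, 103 and 116 CPM (3 control UMIs, pooled ratio 36.7, counting interval 12.5 to 178). The lipoxygenase gene Alox12e stood at 2.07, 144 and 115 CPM (ratio 58.3, interval 16.1 to 482) and the protease inhibitor family gene Wfdc3 at 2.07, 82.5 and 103 CPM (ratio 48.0, interval 13.3 to 397). These 3 genes had at most 3 UMIs in the control members, so that their ratios are imprecise.

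Among the largest falls, Crhbp, the binding protein of corticotropin-releasing hormone (chromosome 13, 95431371 to 95444924, minus strand), stood at 781, 6.15 and 2.48 CPM (log2 fold change -7.84, SE 0.34, adjusted p = 0.00105). Its control UMIs came from 9 of 16 members, and without the top cell, which held 46.1%, the control stood at 473 CPM before TMM scaling. The interferon-induced gene Ifi27l2a stood at 1808, 15.9 and 6.67 CPM, in 11 control members. Tmem27 stood at 101, 0.362 and 1.03 CPM, in 7 control members. Klhdc8a (59.0, 0.362 and 1.03 CPM), Ly6a (182, 1.81 and 3.25 CPM) and the growth factor gene Nrg1 (65.2, 0 and 1.20 CPM) were spread over 10, 8 and 5 control members.

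Other large falls rested on single control cells. The osteoblast genes Bglap3 (432, 0 and 0.684 CPM) and Spp1 (271, 0.723 and 2.22 CPM) had 99.5% and 94.7% of their control UMIs in control member 12, which held 2 genes of the rule and 71111 UMIs. Otol1 (122, 2.53 and 0.684 CPM) had all of its control UMIs in control member 1, as did Frzb, a gene of a competing marker set, at 95.2, 1.08 and 0.684 CPM and given without a test. Ang4 (43.4, 0.723 and 0.598 CPM) had 69.0% in 1 cell. Without its top cell, Bglap3 stood at 2.39 and Spp1 at 16.7 CPM in the control before TMM scaling.

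To ask whether the response was particular to Vmo1-Otx2 cells, it was set against the Sox2-Otog class, the Epcam cells that scored highest for Sox2, Otog, Rorb, Gjb2 and Ceacam16 (20, 36 and 27 cells). The other classes had under 10 control cells. In 1 edgeR fit with the library as a block, 246 of 11514 genes differed in response (2.14%), 129 with a higher response in members (1.12%) and 117 with a lower one (1.02%). At an unadjusted p of 0.05 or less there were 1562.

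The G2/M list held 24 of its 26 genes among those with a higher response in members. In the control, however, 99.1% of the 1649 G2/M UMIs of the Sox2-Otog class lay in 1 of its 20 cells. With the cell of most G2/M UMIs left out of each library and class, 0 of 26 differed (2 at an unadjusted p of 0.05 or less), the median difference moved from 6.32 to 1.84, and the counts over all genes became 23 and 72. No gene of the MYC growth list, the Notch list or the S phase list was called different in response, with median differences of -0.19, 0.10 and 0.75 on the log2 scale, which does not show that the classes responded alike. By unadjusted p, 3, 5 and 6 genes of these lists differed at 0.05. Of the 79 ribosomal protein genes none was called, while 57 had a lower response in members at an unadjusted p of 0.05 or less (median difference -0.75). Other lists also held calls, against 1.12% higher and 1.02% lower over all genes. Of 25 immediate early and dissociation genes, 4 had a higher and 1 a lower response, or 3 and 1 without the cells of most G2/M UMIs. Of 13 sodium absorption genes, 2 had a lower response, or 1 without those cells. The G1 cyclin, the wound and YAP and the glutathione lists, of 17 tested genes each, held 2 lower responses each. The glutathione list also held 1 higher response. The junction, keratin, otic factor, interferon, acute phase and integrated stress lists held 1 lower response each. With total count scaling, only the higher response of the glutathione list remained among the lists named since the ribosomal genes.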

How the data were processed

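Single-cell libraries of 10x Genomics 3′ chemistry version 3.1 were measured. The authors deposited matrices of UMI counts for 31053 genes, 1 per library. Build mm10 (GRCm38), STAR, Cell Ranger 5.0 and Seurat 3.2.2 are named, per the submitters' processing notes, while the matrix headers give software 3.1.0. Their roles, and whether introns were counted, are not given in the sources used here.

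Set scores were means of log-transformed counts per 10000 UMIs. For sums over cells the test was that of edgeR 4.0.16 (under R 4.3.3, filterByExpr, 1 residual degree of freedom), with DESeq2 1.42.0 as an alternative. Shares used scipy 1.17.1. On simulated data of 11030 genes, the treatment test recovered 29.7%, 79.6% and 93.4% of changes of 2-, 4- and 8-fold, and 4 of its 122 calls were of unchanged genes. The test of the difference in response recovered 8.22%, 44.6% and 62.5%, and 7 of its 77 calls were of unchanged genes. Every simulated gene had the same spread and cells were not simulated. These rates therefore do not cover genes whose control UMIs lay mostly in 1 cell. Positions are from GENCODE M21.

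The members, gene lists and tests were chosen with earlier results of these data known. Named genes were the rule's 5, list members by level or smallest p, the 15 leading genes, the 12 largest rises and falls, Myc and Notch1, and the 6 largest differences in response in each direction. Jag1, Sox9, Hes1, Hes5, Irf7, Ifit3, Isg15, Cdkn1a and Ano1 were named after their values were seen. Some genes that the rule names are not reported here.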

Additional observations from a re-analysis of the deposited data

Results flagged for a closer look

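The response to Dox differed between Vmo1-Otx2 cells and the Sox2-Otog class by a test of the difference (edgeR, adjusted p of 0.05 or less) for 129 genes with a higher response in members and 117 with a lower one. The named genes each had a library and class with no UMI, so the fitted log2 differences depend on the prior count and are no bounds. The UMIs below are ordered control, Dox replicate 1, Dox replicate 2.

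The 6 largest higher responses were those of the mitotic genes Ube2c (13.04), Sgo2a (12.64), Aspm (12.63), Kif23 (12.30), Cdc20 (12.21) and Ccnb1 (12.14). Ube2c had 0, 331 and 2303 UMIs in members and 86, 92 and 130 in the Sox2-Otog class. With the cell of most G2/M UMIs left out of each library and class, the difference of Ube2c was 1.86 and none of the 6 passed.

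The 6 largest lower responses were those of Nrg1 (-13.85), Col8a1 (-13.69), Cp (-12.52), Cald1 (-12.48), Crhbp (-12.21) and Ntf3 (-11.55). Each had UMIs in the control members and none in the control Sox2-Otog cells. Crhbp had 755, 17 and 29 UMIs in members and 0, 1 and 2 in the Sox2-Otog class, and Col8a1 had 333, 30 and 317 against 0, 0 and 105. Nrg1 had 63, 0 and 14 against 0, 0 and 15. With total count scaling none of these 6 passed.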

How the results depend on the processing

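For Dox against control, 1671 genes rose and 1504 fell, against 659 and 591 with DESeq2's Wald test, 153 and 59 with cells thinned to 1000 UMIs (963 genes tested) and 1 and 12 with cells thinned to 5000 UMIs (4485 tested). The cause was not tested, beyond the fewer UMIs and genes in the thinned fits. For the difference in response, 129 genes were higher and 117 lower in members, against 17 and 5 with total count scaling, 238 and 287 with no filter on low counts and 23 and 72 without the cell of most G2/M UMIs of each library and class, a setting chosen after seeing the data.

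The share of members moved from 17.8%, 20.5% and 40.4% of Epcam cells to 6.21%, 10.5% and 27.4% of all kept cells. Thinning to 2000 UMIs gave 6.70% and 21.3% for the Dox libraries. Leaving out shallow barcode copies gave 31.3% for the control, a setting also chosen after seeing the data.

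Over 97 gene results, 1268 alternative fits gave 1125 values counted as the same, 108 that no longer passed, 3 that reversed and 32 that moved. Of those that no longer passed, 64 came with cells thinned to 5000 UMIs. The same meant the same direction and side of the threshold. With 1 Dox library left out there was no test, and it meant within 1 SE of the main value. This held for 75 results without Dox replicate 1 and 63 without Dox replicate 2, and the 32 that moved lay farther off. Gdf15, at -1.03, became 1.61 with at least 3 genes of the rule. Il33, at -1.92, became 0.89 without cells over 100000 UMIs and 1.08 without the cell of most G2/M UMIs. Without a Dox library, 1 library faced 1, which gave values and no test. No paired analysis was possible because there was a single control library and the titles give no pairing.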

Other observations

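The members of the Dox libraries were close to each other for most genes. Of 4237 genes with at least 500 UMIs in these members, 4186 (98.8%) lay within 2-fold and 10 lay beyond 4-fold. The genes named here were chosen after their values were seen and have no test. Higher in Dox replicate 2 were Ccl2 (0.362 against 50.1 CPM), a chemokine gene, Anxa1 (12.7 against 234, control 191), Wfdc18 (9.40 against 149, control 939) and Krt7 (8.68 against 54.8). The heat shock gene Hspa1a stood at 5.79 against 76.2 CPM, with 68.8% and 77.7% of its UMIs in 1 member of each library. Higher in Dox replicate 1 were Galm (107 against 42.7) and Ifi27 (173 against 80.2). Within Dox replicate 2, Vmo1 and the summed G2/M genes had a Spearman rho of -0.38 over 204 unthinned members of at least 5000 UMIs. In Dox replicate 1 the rho was -0.23 over 39 such members. Depth was not equalised: with it, the G2/M sum had a rho of 0.37 and 0.12 and Vmo1 of -0.22 and 0.08 in the same order.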
